A study of Mus musculus with 12 samples.

Results

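Serpina3n, C4b, Klk6, Il33, Ptgds, Apod and Cd9 are 7 genes reported to be raised in oligodendrocytes of diseased or injured brain, or to be typical of the latest stage of oligodendrocyte maturation. They were taken by gene symbol from the deposited table of raw read counts, which lists 55376 genes, and all 7 were found once. RNA-Seq had been done on live O1+ CD45- cells sorted from the brains of C57BL/6 mice at postnatal day 40, in 12 samples, 4 per genotype, from 8 brains per genotype or 2 per sample. The genotypes were wild type (WT, replicates 1, 3, 5 and 6), Cnp-Cre Jab1fl/fl (the single mutant, replicates 1 to 4) and Cnp-Cre Jab1fl/fl p21CIP1-/- (the double mutant, replicates 1, 2, 3 and 5). In both mutants Cre under the Cnp gene, which is active from the late progenitor stage, deletes Jab1 (gene symbol Cops5) in the oligodendrocyte lineage and also in Schwann cells. The double mutant also carries a knockout of p21CIP1 (Cdkn1a) that is not limited to a cell type. The 12 samples include none from mice lacking p21CIP1 alone and none labelled as carrying Cnp-Cre alone. Whether the WT mice carried a floxed allele was not given in the sources used here. The p-values measure the spread between these samples, each from 2 brains, and not the spread between single mice.

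Oligodendrocytes make the myelin of the central nervous system. In models of amyloid disease, demyelination and injury, some of them take on a state known for Serpina3n, a secreted inhibitor of serine proteases, and C4b, the complement component that is deposited on targets early in the classical pathway, together with MHC class I genes. Klk6 encodes a secreted serine protease made by mature oligodendrocytes that can cut myelin proteins and activate PAR receptors. Il33 encodes a nuclear cytokine that is released from damaged cells and is read by the receptor chain Il1rl1. Ptgds makes prostaglandin D2 and carries lipids in the extracellular fluid, Apod is a lipid-binding lipocalin, and Cd9 is a tetraspanin of the myelin membrane. Several of these genes are also used elsewhere in the brain: Serpina3n and C4b by reactive astrocytes, Ptgds and Apod by cells of the meninges and vessel walls, and Cd9 by microglia and endothelium.

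The regions around the start sites of 2 members with higher and 2 with lower mean levels in both mutants are printed here, because their means differed from WT in opposite directions. Not every mutant sample lay outside the WT range for these genes. Each sequence is 300 bases of RefSeq's GRCm38.p6 assembly, from 250 bases before to 50 bases after an annotated start, read 5′ to 3′ on the strand of the gene. Capitals mark the match of a motif. The windows are chr12:104406458-104406757 (+ strand) for Serpina3n, chr7:43824294-43824593 (+ strand) for Klk6, chr19:29945540-29945839 (+ strand) for Il33 and chr2:25469700-25469999 (- strand) for Ptgds.
Serpina3n: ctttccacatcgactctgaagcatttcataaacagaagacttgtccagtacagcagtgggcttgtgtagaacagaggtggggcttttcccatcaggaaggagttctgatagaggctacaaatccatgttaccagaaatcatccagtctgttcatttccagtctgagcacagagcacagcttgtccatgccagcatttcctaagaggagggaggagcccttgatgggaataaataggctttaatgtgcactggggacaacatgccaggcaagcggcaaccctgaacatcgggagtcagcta
Klk6: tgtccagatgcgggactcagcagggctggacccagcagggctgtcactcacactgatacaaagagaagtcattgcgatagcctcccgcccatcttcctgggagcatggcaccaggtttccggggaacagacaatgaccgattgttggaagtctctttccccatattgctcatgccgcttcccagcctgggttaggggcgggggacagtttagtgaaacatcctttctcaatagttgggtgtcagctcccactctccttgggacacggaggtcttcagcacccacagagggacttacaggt
Il33: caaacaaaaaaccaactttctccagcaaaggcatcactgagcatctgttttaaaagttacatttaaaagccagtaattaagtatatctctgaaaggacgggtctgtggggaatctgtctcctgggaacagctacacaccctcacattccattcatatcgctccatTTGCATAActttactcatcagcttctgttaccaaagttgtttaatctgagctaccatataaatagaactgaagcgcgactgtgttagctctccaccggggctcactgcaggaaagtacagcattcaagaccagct
Ptgds: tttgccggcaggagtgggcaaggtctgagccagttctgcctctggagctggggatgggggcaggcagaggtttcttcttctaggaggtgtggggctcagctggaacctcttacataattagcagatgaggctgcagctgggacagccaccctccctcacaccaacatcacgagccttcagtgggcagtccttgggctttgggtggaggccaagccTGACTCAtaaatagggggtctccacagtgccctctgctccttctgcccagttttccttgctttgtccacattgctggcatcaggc

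The windows of 6 members in the RefSeq table, of which Klk6 and Il33 have 2 each, were searched on both strands for the letters of 6 motifs: GAS (TTCNNNGAA), the ISRE core (GAAANNGAA), AP-1 (TGANTCA), CARE (TTGCATCA), C/EBP (TTGCNNAA) and kappa-B (GGGNNTTCC). The matches found lie in separate windows. The Ptgds window held an AP-1 match that begins 35 bases upstream of the start, and 7.81% of 32851 windows in the table hold that motif. AP-1 is the site of Jun and Fos proteins. The Il33 window printed above, which lies inside the annotated gene, held a C/EBP match 85 bases upstream of its start (10.8% of windows). The other Il33 window (chr19:29924863-29925162), which holds the start of the annotated gene, is not printed and held no match. The Cd9 window held an ISRE core match 127 bases upstream (8.56% of windows). The windows of Serpina3n, Klk6 and Apod held none of these letters, and GAS, CARE and kappa-B, which 8.30%, 0.895% and 5.82% of all windows hold, matched in no window of a member.

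In the GRCm38 annotation the members lie on 7 chromosomes. Serpina3n (ENSMUSG00000021091.8) is at chr12:104406729-104414329 on the + strand, and 6.90% of its 50-base stretches of exon also occur in neighbours of the Serpina3 cluster. C4b (ENSMUSG00000073418.4) is at chr17:34728380-34743882 on the - strand, 65.2 kb from its near-copy C4a, with which it shares 35.2% of such stretches. How reads that fit both were counted was not given, so the C4b values carry that uncertainty. C4a itself stayed low, at 0.308 to 1.76 CPM (counts-per-million, scaled for library size) in WT, 0.971 to 4.11 CPM in the single mutant and 0.997 to 5.51 CPM in the double mutant. C4b is also 5.63 Mb from Cdkn1a, the gene targeted in the double mutant, whose knockout allele came from strain 129S6/SvEvTac and was backcrossed. Whether sequence of that strain remains around C4b was not tested. Cd9 (ENSMUSG00000030342.8, chr6:125460266-125494791, - strand) shares 15.5% of its stretches, mostly with Gm26728, which overlaps it on the other strand. Klk6 (ENSMUSG00000050063.18, chr7:43824499-43832030, +), Il33 (ENSMUSG00000024810.16, chr19:29925114-29960718, +) and Ptgds (ENSMUSG00000015090.13, chr2:25466709-25470046, -) share none, and Apod (ENSMUSG00000022548.14, chr16:31296192-31314808, -) shares 0.296%.

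Total counts ranged from 61485556 to 153495112 per sample, and the smallest count of a member was 1087 reads, for Serpina3n in WT replicate 5. The error of sampling reads is thus small beside the differences between samples of a genotype. The libraries were amplified from low input RNA, and error from before that step was not measured. Cops5 was at 46.5 to 134 CPM in WT, 45.1 to 89.3 CPM in the single mutant and 44.4 to 90.7 CPM in the double mutant, and did not pass the test in either mutant against WT (adjusted p = 0.349 and 0.424 by edgeR). The counts cover the whole gene and do not show the deleted exons apart. By qPCR on sorted cells the study reported less Cops5 mRNA in the single mutant than in WT. Cdkn1a was at 16.0 to 85.6 CPM in WT, 380.1 to 639 CPM in the single mutant and 64.9 to 104 CPM in the double mutant, which was not below WT (log2 fold change 1.08, adjusted p = 0.394 by edgeR). These gene counts thus do not show the knockout against WT, and which part of the gene the reads cover was not examined. Against the single mutant, Cdkn1a was lower in every double-mutant sample (log2 fold change -2.35, adjusted p = 0.0916 by edgeR and 1.57e-10 by DESeq2). By qPCR on sorted cells the study reported Cdkn1a as undetectable in the double mutant. Cnp, the gene that carries Cre, was at 4848 to 13335 CPM in WT, 228 to 1665 CPM in the single mutant and 848 to 2579 CPM in the double mutant. The defining genes of mature oligodendrocytes, Mog, Mag and Mbp, were abundant in every sample, with Mog between 143 and 3103 CPM and Mbp between 5201 and 26502 CPM. The sorted cells were not free of other RNA: 11 astrocyte markers summed to between 3752 and 14432 CPM over the 12 samples, and 12 microglia markers to 81.5 to 202 CPM in WT, 742 to 1576 CPM in the single mutant and 230.1 to 10448 CPM in the double mutant, where the highest value was that of replicate 3. That library stands apart, and values without it are given for the members and the counts of related genes.

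**Figure D1:**
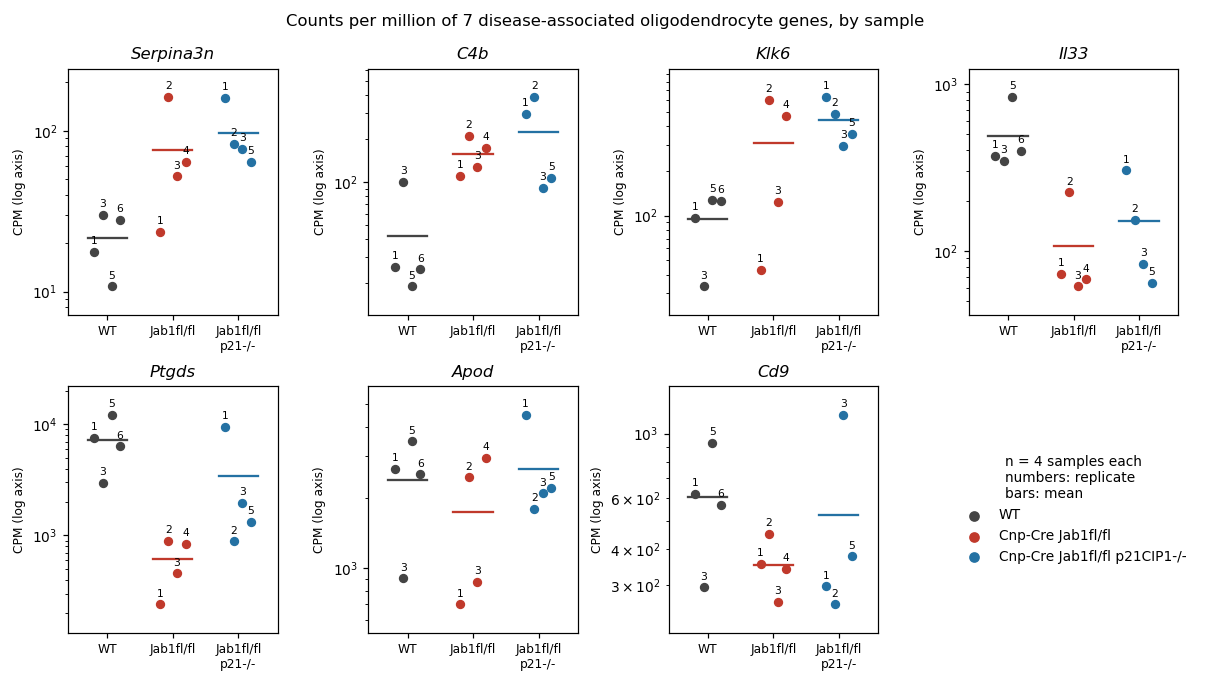
Level of each gene in each of the 12 samples, in CPM on a log axis, with a panel per gene, the replicate number at each point and a bar at the mean of the 4 samples of a genotype (WT in black, Cnp-Cre Jab1fl/fl in red, Cnp-Cre Jab1fl/fl p21CIP1-/- in blue). All 4 WT samples lie above all 4 Cnp-Cre Jab1fl/fl samples for Il33 and Ptgds and below them for C4b, while Apod and Cd9 overlap between all genotypes.

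The first comparison asks how these genes differed between the single mutant and WT. Effects of Cnp-Cre itself and of the loss of Jab1 cannot be told apart in it. In the single mutant Ptgds and Il33 fell against WT, C4b and Serpina3n had higher levels that missed the threshold of edgeR and passed that of DESeq2, Klk6 spread too widely to be called, and Apod and Cd9 did not pass any test. The set of 7 thus did not move as a block. The test was edgeR's quasi-likelihood test on the 8 samples compared, and a gene passed at a Benjamini-Hochberg adjusted p under 0.05. Of the 17716 genes tested, 5.19% passed as higher and 2.46% as lower. Of the 7 members, 0 passed as higher and 2 as lower. At an unadjusted p under 0.05, 5 of the 7 members passed, and 22.5% of all genes. The members' median log2 fold change was -0.46, beside 0.02 over all genes, with 3 members above 0 and 4 below.

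Ptgds had the largest change of the 7. It was at 7565, 2964, 12181 and 6328 CPM in WT replicates 1, 3, 5 and 6, and at 240.4, 899, 458 and 844 CPM in single-mutant replicates 1 to 4. The highest single-mutant sample thus lay below the lowest WT sample. The log2 fold change was -3.57 (SE 0.56), an 11.9-fold lower level, with an adjusted p of 0.00491 by edgeR and 6.97e-13 by DESeq2. Leaving out any of the 8 samples kept the call, with log2 fold changes between -3.85 and -3.20. In WT Ptgds ranked number 7 of all genes tested by mean CPM, and in the single mutant number 117.

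Il33 was at 371, 346, 838 and 398 CPM in WT, with replicate 5 far above the others, and at 72.6, 225, 61.2 and 67.5 CPM in the single mutant, with replicate 2 the only one above 100. Here too no single-mutant sample reached the lowest WT sample. Its log2 fold change was -2.20 (SE 0.50), a 4.58-fold lower level, with an adjusted p of 0.0235 by edgeR and 3.26e-05 by DESeq2. The call was lost by a small margin without WT replicate 5 (-1.80, adjusted p = 0.0654), without single-mutant replicate 1 (-2.05, adjusted p = 0.0672), replicate 3 (-2.01, adjusted p = 0.0678) or replicate 4 (-2.06, adjusted p = 0.0664), while without single-mutant replicate 2 the log2 fold change was -2.87 (adjusted p = 0.00283 by edgeR).

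C4b was at 25.8, 99.8, 18.9 and 24.8 CPM in WT and at 111, 209.9, 128 and 172 CPM in the single mutant. All single-mutant samples lay above all WT samples, narrowly so because WT replicate 3 was at about the level of the lowest of them. This gave a log2 fold change of 1.87 (SE 0.52), a 3.67-fold higher level, with an adjusted p of 0.0508 by edgeR, just short of the threshold, and 0.00123 by DESeq2. Without WT replicate 3 it was 2.73 with an adjusted p of 0.00468 by edgeR. Over all genes, the samples of the 2 genotypes did not overlap for 9.90% as higher and 7.24% as lower, against 1 member as higher and 2 as lower.

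Serpina3n was at 17.7, 29.9, 10.8 and 28.0 CPM in WT and at 23.5, 162, 52.1 and 64.3 CPM in the single mutant. Replicate 1 of the single mutant lay inside the WT range, and the other 3 samples lay above it. For Serpina3n the log2 fold change was 1.81 (SE 0.55), with an adjusted p of 0.0708 by edgeR and 0.00639 by DESeq2. Without single-mutant replicate 1 the log2 fold change was 2.10 and the adjusted p 0.0373. With DESeq2, 2 members (C4b and Serpina3n) passed as higher and 2 (Il33 and Ptgds) as lower, beside 9.52% and 5.66% of all genes.

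Klk6 was at 96.1, 33.3, 127 and 125 CPM in WT and at 42.9, 601, 123 and 471 CPM in the single mutant. Samples 2 and 4 of the single mutant were well above WT, and samples 1 and 3 were within the WT range. This 14.01-fold range was the widest of any member within a genotype, and the difference (log2 fold change 1.70, SE 0.71) did not pass (adjusted p = 0.181 by edgeR and 0.185 by DESeq2).

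Apod and Cd9 did not pass the test, and their samples overlapped between WT and the single mutant. Apod was at 2656, 904, 3479 and 2512 CPM in WT and at 699, 2440.3, 872 and 2955 CPM in the single mutant, with a log2 fold change of -0.46 (SE 0.54, adjusted p = 0.682 by edgeR). Cd9 was at 620.1, 294, 928 and 568 CPM in WT and at 354, 449.7, 262 and 340.2 CPM in the single mutant, with -0.78 (SE 0.36, adjusted p = 0.235 by edgeR). For both genes the lowest WT sample was replicate 3, and it fell among the single-mutant samples.

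**Figure D2:**
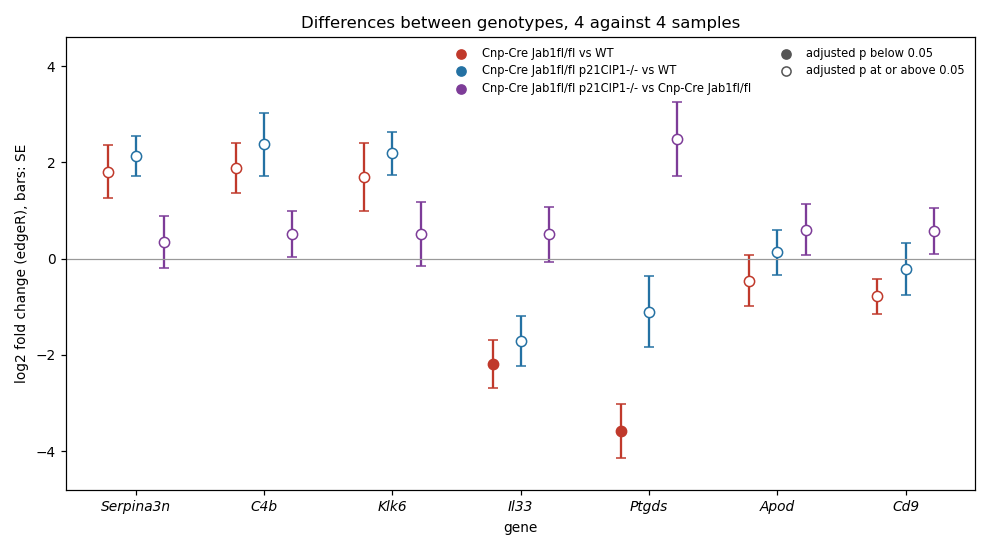
Log2 fold change of each gene in the 3 comparisons between genotypes, 4 against 4 samples each, by edgeR, with bars for the standard error and filled points for an adjusted p below 0.05. Only Il33 and Ptgds in Cnp-Cre Jab1fl/fl against WT, at -2.20 and -3.57, are filled.

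The comparison of the double mutant with WT shares the WT samples with the first, so the values are given side by side and not as a second observation. In the double mutant Serpina3n and Klk6 were above WT in every sample, Il33 was below WT in every sample, and Ptgds was not separated from WT. No member passed the threshold of edgeR, in a comparison where 0.175% of all genes passed as higher and 0.0169% as lower, while at an unadjusted p under 0.05 there were 4 members and 12.4% of all genes. DESeq2 called 3 members higher (Serpina3n, C4b and Klk6) and 1 lower (Il33), beside 3.74% and 1.12% of all genes. Without double-mutant replicate 3 it called 3 members higher and none lower. With all 8 samples limma-voom with sample weights called Serpina3n, C4b and Klk6. The share of all genes called is not given for the fit without replicate 3 or for limma-voom. The samples did not overlap for 2 members as higher and 1 as lower, beside 4.52% and 3.58% of all genes.

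Serpina3n in double-mutant replicates 1, 2, 3 and 5 was at 160.35, 83.2, 77.3 and 64.3 CPM, so the lowest was above the WT maximum of 29.9 CPM. Against WT its log2 fold change was 2.14 (SE 0.42), with an adjusted p of 0.0844 by edgeR and 4.28e-05 by DESeq2. Klk6 was at 629.6, 486, 294 and 356 CPM, all above the WT maximum of 127 CPM and within a 2.14-fold range, much narrower than in the single mutant. Its log2 fold change was 2.19 (SE 0.45), with an adjusted p of 0.0874 by edgeR and 6.29e-05 by DESeq2.

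C4b was at 298, 389, 90.9 and 107 CPM in the double mutant. Replicates 1 and 2 were far above WT, and replicate 3 was below WT replicate 3. The log2 fold change was 2.37 (SE 0.65), with an adjusted p of 0.184 by edgeR and 0.00176 by DESeq2. Il33 was at 304, 154, 83.3 and 64.1 CPM, all below the WT minimum of 346 CPM, with a log2 fold change of -1.71 (SE 0.52, adjusted p = 0.216 by edgeR and 0.0186 by DESeq2). Without double-mutant replicate 1 it was -2.29, with an adjusted p of 0.0489 by edgeR.

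Ptgds was at 9562, 885, 1965 and 1327 CPM in the double mutant. Replicate 1 was inside the WT range and the other 3 were below its lowest sample, so the mean of 3435 CPM (SD 4109) describes none of them. The log2 fold change was -1.10 (SE 0.74, adjusted p = 0.581 by edgeR), and without replicate 1 it was -2.39 (adjusted p = 0.0597). Apod was at 4513, 1794, 2083 and 2203 CPM, with a log2 fold change of 0.13 (SE 0.46, adjusted p = 0.940), and without replicate 1, by far its highest sample, the sign turned (-0.25). Cd9 was at 297, 257, 1161 and 376 CPM, with a log2 fold change of -0.21 (SE 0.53, adjusted p = 0.911). The Cd9 level of 1161 CPM was in replicate 3, the library with 10448 CPM of microglia markers, and the part of those cells in it was not tested.

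Without double-mutant replicate 3 the log2 fold changes against WT were 2.26 for Serpina3n, 2.66 for C4b, 2.35 for Klk6, -1.49 for Il33, -0.88 for Ptgds, 0.25 for Apod and -0.97 for Cd9, and no adjusted p by edgeR passed, the lowest being 0.114. The first 5 thus kept their direction and rough size without that library, and Cd9 moved the most.

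The third comparison sets the double mutant against the single mutant, in both of which Cnp-Cre deletes Jab1 in the oligodendrocyte lineage. As the p21CIP1 knockout is not limited to a cell type, its effects in oligodendrocytes and in other cells cannot be told apart. By edgeR 0% of all genes passed as higher and 0% as lower, so 0 of the 7 members did, and DESeq2 called 0 members beside 0.113% of all genes as higher and 0.378% as lower. The samples of the 2 mutants overlapped for all 7 members, where they did not for 1.22% of all genes as higher and 1.99% as lower. At an unadjusted p under 0.05 there was 1 member, Ptgds, and 885 genes in all, which is 5% of those tested. Ptgds was 5.63-fold higher in the double mutant on the fitted scale (log2 fold change 2.49, SE 0.77, adjusted p = 0.847 by edgeR), a value that became 1.19 without double-mutant replicate 1. Its ranges, 240.4 to 899 CPM and 885 to 9562 CPM, met at replicate 2 of each genotype. The other 6 members had log2 fold changes between 0.35 and 0.60 with adjusted p values of 0.996 or above. All 7 fitted values were thus above 0, with a median of 0.51 beside 0.02 over all genes, but those of Serpina3n and Il33 turned (-0.012 and -0.086) without double-mutant replicate 1 and that of Cd9 (-0.16) without replicate 3. Without replicate 3 the others were 0.46 for Serpina3n, 0.79 for C4b, 0.74 for Il33, 0.68 for Klk6, 2.72 for Ptgds and 0.73 for Apod, and none passed.

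Levels per kilobase of the longest transcript allow the members to be ordered against each other. In WT the order was Ptgds at 8057 CPM per kilobase, Apod at 1151, Cd9 at 491, Il33 at 192, Klk6 at 68.5, Serpina3n at 10.5 and C4b at 7.87 CPM per kilobase. The ranges over the 4 WT samples overlapped between Apod and Cd9, between Cd9 and Il33 and between Serpina3n and C4b, and did not between the other neighbours. In the single mutant Apod (840 CPM per kilobase, 337 to 1425) and Ptgds (677 CPM per kilobase, 267 to 998) overlapped at the top, and Klk6 (222 CPM per kilobase) stood above Il33 (41.9 CPM per kilobase) by its mean but not by its range, since its lowest sample was at 30.8 CPM per kilobase. In the double mutant Klk6 (211 to 452 CPM per kilobase) was above Il33 (25.2 to 119.6 CPM per kilobase) in every sample, where in WT every Il33 value (136 or more) was above every Klk6 value (91.3 or less).

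The members varied between samples of a genotype. The median SD of log2 CPM over all genes was 0.51 in WT, and all 7 members were above it. It was 0.64 in the single mutant, with 5 members above and C4b (0.41) and Cd9 (0.32) below, and 0.66 in the double mutant, with 4 above. In WT the members split in an ordered way. Replicate 3 was highest for Serpina3n and C4b and lowest for the other 5, and replicate 5 was lowest for Serpina3n and C4b and highest for the other 5. WT replicate 3 also had the highest sum of astrocyte markers (14432 CPM) and the lowest of mature oligodendrocyte markers (39103 CPM), and WT replicate 5 the lowest of the first (5745 CPM) and the highest of the second (92227 CPM). The part of astrocyte RNA in these WT levels was not tested. In the single mutant replicate 2 was highest for 6 of the 7 members, all but Apod, and in the double mutant replicate 1 was highest for 5, all but C4b and Cd9. Each of these libraries had the highest mean log2 level of mature oligodendrocyte markers (9.37 and 10.18) and the lowest sum of microglia, endothelial and leptomeningeal fibroblast markers in its genotype. In sorted bulk RNA, fewer oligodendrocytes and less of a transcript per oligodendrocyte cannot be told apart.

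The levels were therefore also set against the cells' own markers, as the log2 level of a gene minus the mean log2 level of 11 mature oligodendrocyte markers in the same sample. Their mean was itself lower in the mutants, by 2.06 log2 units in the single and 1.22 in the double mutant, although Mbp was not (log2 fold change 0.27, adjusted p = 0.811 by edgeR in the single mutant), so on this scale most genes move up: the median over all genes was 2.03 and 1.18. Of the 7 genes, Il33 had the smallest difference between single mutant and WT on this scale (-0.25). Its value was -1.35 ± 0.12 (SD, n = 4) in WT and -1.60 ± 0.46 in the single mutant, which overlap, and -1.97 ± 0.19 in the double mutant, which lay below WT in every sample. Where the median of the markers set the scale, a choice made after seeing the data, the difference of the double mutant from WT was 0.052 and the samples overlapped. Ptgds was 1.52 log2 units lower in the single mutant than in WT, beyond the fall of the markers, with WT replicate 3 (1.67) just below single-mutant replicate 3 (1.76).

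Serpina3n, C4b, Klk6, Apod and Cd9 were above WT in every single-mutant sample on this scale. That count of 5 of 7 stands beside 48.2% of all genes that did so, and 0 members and 0.147% of genes were below. The differences of Serpina3n (3.60), C4b (4.21) and Klk6 (3.27) were larger than the median of all genes, and those of Apod (1.499) and Cd9 (1.37) smaller. In the double mutant Serpina3n, C4b, Klk6 and Apod, 4 of 7, were above WT in every sample, beside 15.7% of all genes, with differences of 3.33, 3.64, 3.53 and 1.42, and 1 member, Il33, was below, beside 0.214%. Without double-mutant replicate 3 these differences were 3.29, 3.86, 3.58 and 1.39, and -0.55 for Il33, and the same 5 genes did not overlap with WT. Between the mutants all 7 members overlapped, with and without that library, where 0.0903% of genes did not as higher and 1.08% as lower.

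**Figure D3:**
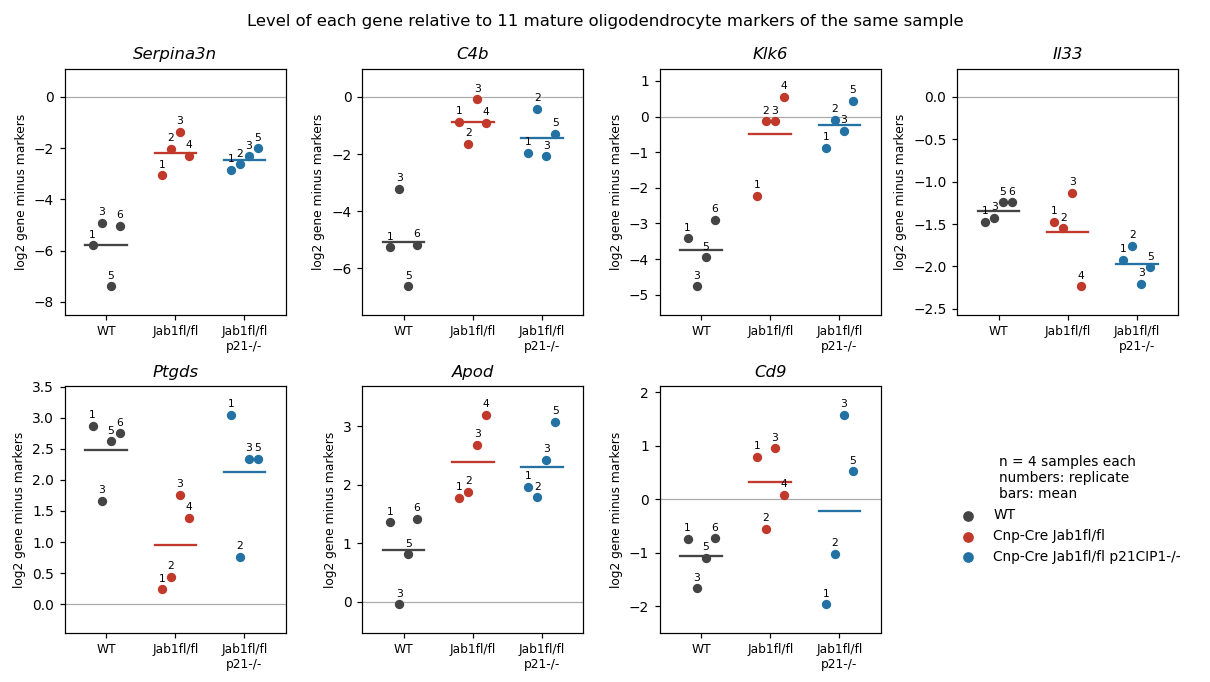
Log2 level of each gene minus the mean log2 level of 11 mature oligodendrocyte markers in the same sample, a panel per gene, with the replicate number at each point and a bar at the mean of 4 samples. Serpina3n, C4b and Klk6 stand at least 3.27 log2 units higher in both mutants than in WT by their means, and Il33 stays between -2.24 and -1.13 in all 12 samples.

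The genes with the profile most like that of each member were found among 10450 others with a mean of at least 10 CPM, by the root-mean-square difference of centred log2(CPM + 1) values over the 12 samples. For Il33 the nearest was Ermn, the gene of the myelin-associated protein ermin and itself among the 11 markers, at a difference of 0.23 log2 units where Il33 itself varied by 1.23. Ermn went from 895 CPM in WT to 175 CPM in the single and 262 CPM in the double mutant. The second was Olfml1 (0.33). For Ptgds they were Gm21984 (0.49) and Nkain2 (0.53). Serpina3n was followed less closely, by Ephx1 (0.58), the microsomal epoxide hydrolase, and Dct (0.68), C4b by Fam43a (0.63) and Cmip (0.65), and Klk6 by Gstp2 (0.56), a glutathione transferase, and Ddit3 (0.65), which encodes the stress transcription factor CHOP. Ddit3 went from 45.9 CPM in WT to 225 and 284 CPM in the mutants. Apod was nearest to Sec11c (0.26) and Gstp-ps (0.26), and Cd9 to Pigu (0.30) and Itm2b (0.33). Among the members themselves Serpina3n and C4b were the closest pair (0.73), then Apod and Cd9 (0.83) and Serpina3n and Klk6 (0.86), and C4b and Ptgds were the farthest apart (2.72).

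Around the members, 97 genes of 9 related lists were looked up, of which 69 were tested. In the single mutant against WT 15 passed by edgeR as higher and 8 as lower, where 5.19% and 2.46% of all genes did. DESeq2 called 22 as higher and 14 as lower, beside 9.52% and 5.66% of all genes. Among 12 other genes of the disease-associated state, all tested, 7 rose and none fell: B2m, H2-D1, H2-K1, Tapbp, Nlrc5, Psmb8 and Psmb9, which serve antigen presentation on MHC class I. H2-D1 rose from 125 to 695 CPM (log2 fold change 2.48, adjusted p = 0.0047 by edgeR) and B2m from 143 to 938 CPM (2.72, adjusted p = 0.00502), and Psmb8, a subunit of the immunoproteasome, from 3.16 to 44.2 CPM (3.81, adjusted p = 0.0065). The median of the list was 2.27, and DESeq2 called 9 of the 12 as higher and 0 as lower. In the double mutant none passed by edgeR and 7 did by DESeq2, with a median of 2.19. Without replicate 3 of that genotype DESeq2 called 3 (B2m, H2-D1 and Psmb8) and the median was 2.10. B2m, H2-D1 and Psmb8 were highest there in replicate 3, the one of the 4 richest in microglia markers (4128, 2175 and 121.6 CPM), and lowest in replicate 1, the poorest (385, 308 and 6.67 CPM). In the single mutant all 12 microglia and 6 of 10 endothelial markers rose beside these genes. The part of such cells in this list was not tested. Of 10 genes of late mature oligodendrocytes 4 fell by edgeR, Opalin, Mal, Grm3 and Car2, and none rose, with a median of -1.74. With DESeq2 8 of the 10 were called as lower and 0 as higher. Opalin fell from 1149 to 58.6 CPM (-4.29, adjusted p = 0.00909) and was at 175 CPM in the double mutant, where 0 genes of this list passed by edgeR and 3, all lower, by DESeq2 (2 without replicate 3). Mal fell from 3412 to 540.3 CPM (-2.66, adjusted p = 0.0137 by edgeR) and Grm3 from 326 to 85.7 CPM (-1.93, adjusted p = 0.0291).

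Of the classical complement pathway, which C4b serves, 9 of 13 genes were tested and 4 rose in the single mutant: C1qa, C1qb, C1qc and the inhibitor Serping1. C1qa went from 4.72 to 85.6 CPM (log2 fold change 4.18, adjusted p = 0.00171 by edgeR) and was at 255 CPM in the double mutant, where replicate 3 held 866 CPM of it and the lowest sample 19.8 CPM. C1qb rose from 21.99 to 466 CPM (4.41, adjusted p = 0.00374) and C1qc from 18.3 to 276 CPM (3.92, adjusted p = 0.00505). The C1q chains are made in the brain mainly by microglia, and all 12 microglia markers rose in the single mutant too, among them Ptprc, the gene of CD45. The CD45- gate of the sort was set to leave microglia out, and the study's methods describe no overt CD45+ cells on reanalysis of the sorted cells, while the purity for O1+ cells was not complete. The part of microglial RNA in the C1q values was not tested. C3 was not among the genes tested. Of the IL-33 receptor and its signalling genes 1 of 7 rose, where 5.19% of all genes did. This was the receptor chain Il1rl1, at 0 to 0.00992 CPM in WT, 0.890 to 3.68 CPM in the single and 0.111 to 5.11 CPM in the double mutant. Its partner Il1rap was at 178 and 54.5 CPM in WT and single mutant (-1.71, adjusted p = 0.067 by edgeR and 0.00464 by DESeq2). Myd88 was at 11.6 and 21.6 CPM (0.90, adjusted p = 0.182 by edgeR and 0.138 by DESeq2).

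Next to Ptgds, 1 of 11 tested prostaglandin genes rose, where 5.19% of all genes did. This was Hpgds, the other prostaglandin D synthase, from 1.89 to 52.9 CPM (4.81, adjusted p = 0.0094 by edgeR), in the opposite direction to Ptgds. Hpgds is an enzyme of microglia and mast cells, and the part of such cells in its level was not tested. The cyclooxygenase Ptgs1 was at 24.0 and 63.1 CPM (1.40, adjusted p = 0.0719 by edgeR and 0.0159 by DESeq2). Tbxas1 was at 3.22 and 12.2 CPM (1.92, adjusted p = 0.230 by edgeR and 0.111 by DESeq2). Of the other kallikreins and the PAR receptors only 2 of 14 were tested and none passed by edgeR. Klk8 was at 0.422 and 7.66 CPM (4.18, adjusted p = 0.155 by edgeR and 0.0163 by DESeq2). The thrombin receptor F2r was at 5.99 and 8.84 CPM (0.56, adjusted p = 0.729 by edgeR and 0.712 by DESeq2). Of 10 Serpina3 genes other than Serpina3n only Serpina3g was tested, at 0.13 and 3.85 CPM (4.86, adjusted p = 0.164 by edgeR and 0.0218 by DESeq2).

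Among lipocalin and lipoprotein genes, the setting of Apod, Bsg was at 749 and 2604 CPM (log2 fold change 1.80, adjusted p = 0.0538 by edgeR and 0.000819 by DESeq2). Abcg1 was at 55.9 and 31.9 CPM (-0.81, adjusted p = 0.224 by edgeR and 0.188 by DESeq2). Of 11 tetraspanins and partners of Cd9, 2 rose and 3 fell, where 5.19% and 2.46% of all genes did. The risers Cd37 (1.38 to 54.7 CPM, log2 fold change 5.31, adjusted p = 0.00331) and Cd53 are tetraspanins of leukocytes and microglia, and the fallers were Cd82 (326 to 44.2 CPM, -2.88, adjusted p = 0.00538), the CD9 partner Igsf8 (242 to 42.2 CPM, -2.52, adjusted p = 0.013) and Tspan2, a tetraspanin of oligodendrocytes. Cd9 itself did not pass. In the double mutant 0 of the 69 genes passed by edgeR. DESeq2 called 15 as higher and 5 as lower, beside 3.74% and 1.12% of all genes. Without replicate 3 it called 6 and 3, and the share of all genes in that fit is not given. Between the mutants 0 passed by either tool with all samples, and without replicate 3 DESeq2 called 2 lower.

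**Figure D4:**
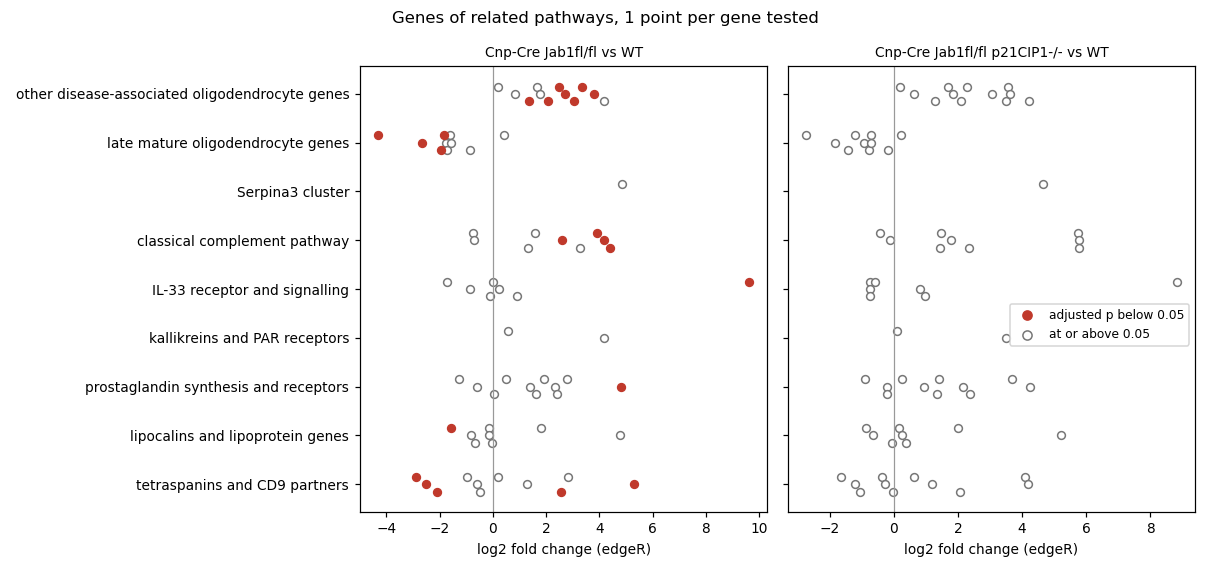
Log2 fold change by edgeR of the tested genes in each of the 9 related lists, 1 point per gene and a row per list, for Cnp-Cre Jab1fl/fl against WT (left) and Cnp-Cre Jab1fl/fl p21CIP1-/- against WT (right); red points have an adjusted p below 0.05. On the left 15 genes are red above 0 and 8 below, and on the right none is red.

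Markers of other cells moved with the genotypes as well, and no part of them in the members' levels was tested. In the single mutant, of the lists against WT, 12 of 12 microglia, 6 of 10 endothelial, 4 of 9 mural, 3 of 9 choroid plexus and 1 of 9 leptomeningeal fibroblast genes tested passed as higher, and 0 of 11 astrocyte and 0 of 10 neuron genes passed either way, with 1 of 5 ependymal, 1 of 3 border macrophage and 1 of 1 other leukocyte genes higher. The leptomeningeal fibroblast list, relevant to Ptgds and Apod, summed to 29.1 to 152 CPM in WT. It summed to 111 to 464 CPM in the single mutant and 42.7 to 377 CPM in the double mutant, and the ranges of the genotypes overlap. The defining gene Dcn was at 1.33 to 298 CPM over the 12 samples. The choroid plexus list summed to 305 to 4147 CPM, 6555 to 24827 CPM and 5477 to 24271 CPM, nearly all of it Ttr, and the endothelial list to 360.1 to 762 CPM, 795 to 5687 CPM and 685 to 5329 CPM. Astrocyte markers, relevant to Serpina3n and C4b, summed to 5745 to 14432 CPM in WT, 3752 to 8885 CPM in the single and 4209 to 11522 CPM in the double mutant. The reactive astrocyte gene Gfap was at 8.52 to 39.5 CPM in WT, 19.8 to 60.7 CPM in the single and 16.0 to 79.2 CPM in the double mutant. Its means were higher in the mutants, at 17.4, 43.7 and 56.7 CPM in the same order. Gfap did not pass in the single mutant (log2 fold change 1.33, adjusted p = 0.169 by edgeR), nor in the double mutant by edgeR or DESeq2. Of mature oligodendrocyte markers 6 of 11 fell in the single mutant and 0 rose, and of progenitor markers 2 of 11 rose and 0 fell. Mural markers summed to 288 to 533, 982 to 1764 and 306 to 1685 CPM, neuronal markers to 140.1 to 228, 203 to 549 and 202 to 555 CPM, progenitor markers to 445 to 1143, 471 to 791 and 402 to 808 CPM, and ependymal markers to 19.7 to 46.7, 42.4 to 53.1 and 20.4 to 52.9 CPM. Border macrophage and other leukocyte lists were at 41.8 and 94.7 CPM in double-mutant replicate 3 and at or below 10.1 and 13.95 CPM elsewhere, with Cd3e at 0 in all WT samples and Lyve1 at 0 in all WT samples.

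**Figure D5:**
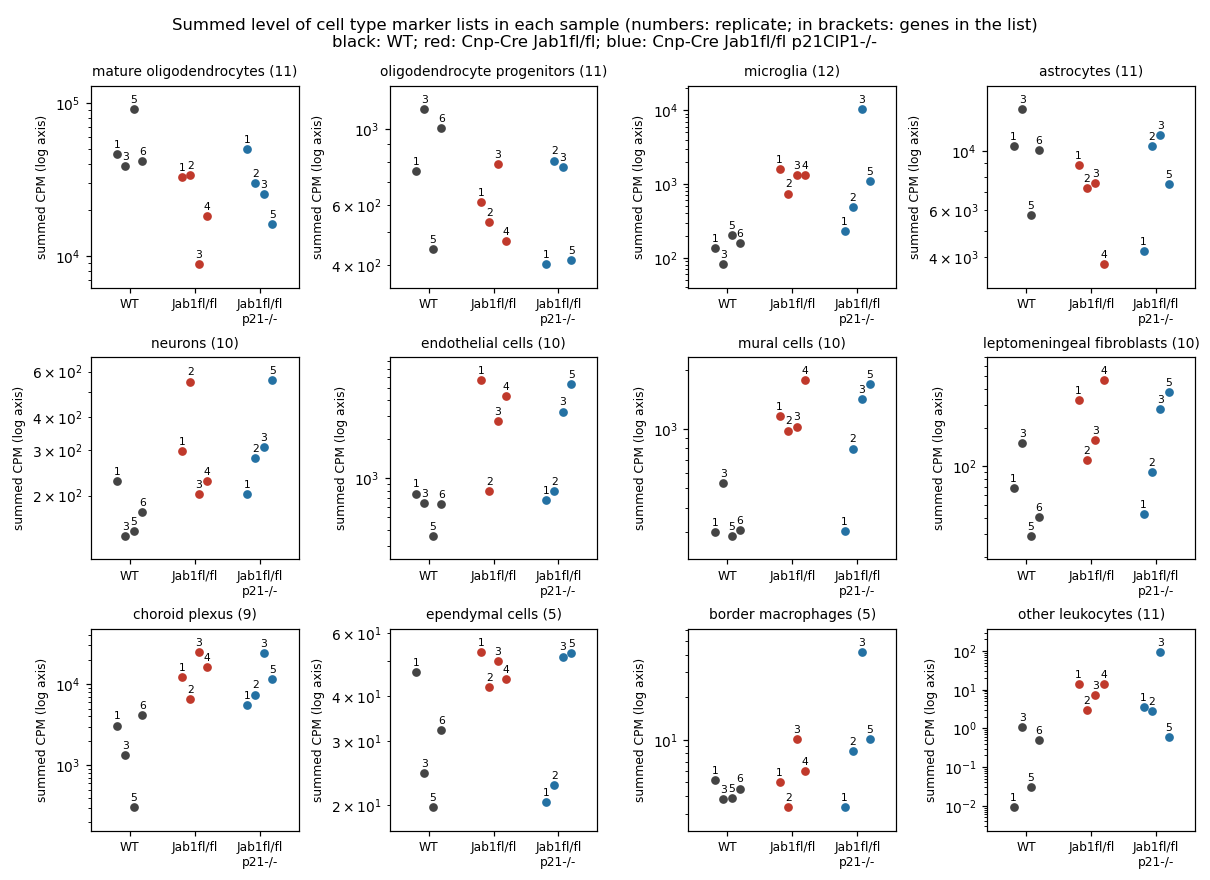
Summed CPM of 12 cell type marker lists in each sample, on log axes, with the replicate number at each point (WT in black, Cnp-Cre Jab1fl/fl in red, Cnp-Cre Jab1fl/fl p21CIP1-/- in blue). Microglia markers are at 742 CPM or more in every single-mutant sample against at most 202 CPM in WT, and reach 10448 CPM in double-mutant replicate 3.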

How the data were processed

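RNA-Seq of 12 sorted samples was analysed, 4 per genotype. Per the labels and the study's methods, the authors prepared libraries with the SMART-Seq v4 kit, used Trimmomatic (0.32) for trimming and STAR (2.5.3a) for alignment to GRCm38, and assigned reads to GENCODE basic genes with featureCounts. What they deposited is a table of raw counts, with no normalization. Strand and multi-mapping settings were not given in the sources used here. Total counts per sample were 61485556 to 153495112.

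The 17716 genes that reached 1 CPM in 4 or more samples were tested with edgeR 4.0.16 (quasi-likelihood test, TMM factors, R 4.3.3) on the 8 samples compared, with Benjamini-Hochberg adjustment over all of them and a threshold of 0.05. All 7 members passed the filter. The SE is the log2 fold change divided by the root of F. CPM used TMM factors over all 12 samples, with 1 CPM added on the log2 scale. DESeq2 1.42.0, limma 3.58.1 (voom), other factors, other filters, all samples in 1 fit, a replicate block and leaving out each sample were alternatives. The pipeline was tested on simulated data. No 2 samples of a genotype were the same library by a chi-square test of their counts. Gene positions and lengths came from a GENCODE annotation of GRCm38 (the authors used another release), and promoter windows from RefSeq.

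The named genes are all members, C4a, the 3 tested genes of each related list with the smallest p in Cnp-Cre Jab1fl/fl against WT, the 2 genes nearest in profile to each member, Cops5, Cdkn1a and Cnp, and the first 3 genes of each marker list. Other genes named in the lists are all of those that passed in a list, named after their values were seen. A gene of the lipocalin and lipoprotein list is not reported here. The members and lists were chosen with earlier results of these data known, so their counts are descriptions. The level relative to oligodendrocyte markers was added after seeing the data.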

Additional observations from a re-analysis of the deposited data

Results flagged for a closer look

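In 6 of 21 groups of 4 samples (7 genes in 3 genotypes), 1 sample lay far from the other 3. Its gap in CPM, without a log scale, exceeded Dixon's critical value for 4 samples. The rate of about 5 in 100 by chance holds for normal values in independent groups. These groups share samples, and each flagged sample was the highest of its group. The count is thus a description and is not set against that rate. C4b in WT replicate 3 was at 99.8 CPM, with the next sample at 25.8 CPM. Il33 in WT replicate 5 was at 838 CPM, with the next at 398 CPM, and in Cnp-Cre Jab1fl/fl replicate 2 at 225 CPM, with the next at 72.6 CPM. In Cnp-Cre Jab1fl/fl p21CIP1-/- replicate 1, Ptgds was at 9562 CPM, with the next at 1965 CPM, and Apod at 4513 CPM, with the next at 2203 CPM. Cd9 in Cnp-Cre Jab1fl/fl p21CIP1-/- replicate 3 was at 1161 CPM, with the next at 376 CPM. In 4 of these 6 the library also held the highest sum of mature oligodendrocyte markers in its genotype, namely WT replicate 5, Cnp-Cre Jab1fl/fl replicate 2 and Cnp-Cre Jab1fl/fl p21CIP1-/- replicate 1, and the Cd9 library held the highest sum of microglia markers of all 12.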

How the results depend on the processing

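Of the 7 genes, 2 passed in Cnp-Cre Jab1fl/fl against WT. The count was 4 with DESeq2 and 4 under a stricter filter (a mean of 10 CPM or more), and 1 to 3 when single samples were left out. With the replicate block and all 12 samples it was 0, with Il33 at -2.59 (adjusted p = 0.171) and Ptgds at -3.36 (adjusted p = 0.257). The sources used here do not say what the numbers mark. Same-numbered samples did not deviate together (correlations between -0.188 and 0.0833), and they were not treated as pairs. With so few shared numbers the correlations cannot decide whether the numbers mark a pairing. In Cnp-Cre Jab1fl/fl p21CIP1-/- against WT the count of 0 became 4 with DESeq2, 3 with limma-voom, 2 under the stricter filter, and 0 to 1 when single samples were left out. Between the mutants it stayed at 0 in every alternative. The count of related genes passing in Cnp-Cre Jab1fl/fl against WT, 23, was 36 with DESeq2, 35 with limma-voom, 1 with the replicate block, and 16 to 32 when single samples were left out. The share of all genes passing is given above only for edgeR and DESeq2 with all samples of a comparison. The counts under other alternatives thus have no background beside them. In Cnp-Cre Jab1fl/fl p21CIP1-/- against WT the log2 fold change of Apod turned to -0.021 with limma-voom. When single samples were left out it lay between -0.25 and 0.39, turning without WT replicate 3 and without Cnp-Cre Jab1fl/fl p21CIP1-/- replicate 1, and that of Cd9 lay between -0.97 and 0.072, turning without WT replicate 5 and without Cnp-Cre Jab1fl/fl p21CIP1-/- replicate 2. Between the mutants the leave-one-out range was -0.012 to 1.05 for Serpina3n and -0.086 to 1.17 for Il33, both turning without Cnp-Cre Jab1fl/fl p21CIP1-/- replicate 1, and -0.16 to 0.80 for Cd9, turning without its replicate 3. Relative to the median of the oligodendrocyte markers, the Il33 difference between double mutant and WT was 0.052, an alternative chosen after seeing the data, as was leaving out Cnp-Cre Jab1fl/fl p21CIP1-/- replicate 3 with DESeq2, in the related lists and relative to the mean of the markers. The causes were not tested. With 4 samples a group and this spread, a member that missed the threshold was not shown to be unchanged.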
